A study of Mus musculus with 8 samples.

Results

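The complement transcripts examined here are those of 8 genes, taken by exact symbol from the 48709 genes listed for each library. They are *C3*, *C4b*, *Cfb*, the 3 C1q chains *C1qa*, *C1qb*, and *C1qc*, and the anaphylatoxin receptors *C3ar1* and *C5ar1*. All 8 symbols were found in all 8 libraries. RNA-Seq was performed on whole pancreas of male mice aged 8 weeks, with 2 libraries in each of 4 groups, and the question was how the transcripts differ by genotype and by treatment. The WT mice were bought from a supplier. The cKO mice carry *Pfkfb3* fl/fl and *Pdx1*-Cre, a Cre driven by a promoter active in pancreatic epithelium and not in immune cells. By this design leukocytes should keep the gene, which was not measured. The floxed allele was made and bred in C57BL/6J. No source calls the WT mice littermates, so genotype and origin of the mice cannot be told apart. FAEE-SAP, the alcohol-related model of severe pancreatitis, was induced by i.p. palmitoleic acid (POA) and ethanol after a saline injection, with the opioid buprenorphine at the first dose. Control mice received saline, and pancreata were taken after 24 hours. WT saline, cKO saline, WT FAEE-SAP, and cKO FAEE-SAP are the names used for the groups.

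Complement is a cascade of plasma and tissue proteins that tags damaged cells and microbes. C1q starts the classical pathway by binding antibody or exposed surfaces, C4 and factor B help form the enzymes that split C3 in the classical and alternative pathways, and the released fragments C3a and C5a call in and activate leukocytes through their receptors. The liver makes most of the circulating protein, whereas C1q is made chiefly by macrophages and dendritic cells, and epithelial cells, fibroblasts, and adipocytes can make C3 and factor B under cytokine stimulation.

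The values are RPKM, reads scaled by exon length and by the reads of the library, which allows levels to be compared between genes. They were divided by 1 scaling factor per library, set so that the typical gene is level across the 8 libraries. The factors were 0.621 to 0.866 with saline, 2.02 and 1.94 for WT FAEE-SAP, and 1.05 and 0.975 for cKO FAEE-SAP. Library totals worked out from the values were 22.9 to 37.8 M reads. *Pfkfb3* itself had a scaled RPKM of 1.70 and 1.69 for the WT saline libraries, 0.880 and 2.10 for cKO saline, 1.85 and 3.21 for WT FAEE-SAP, and 1.74 and 2.82 for cKO FAEE-SAP. The genotypes overlapped under both treatments, and a value summed over all exons does not check a deletion of a few of them in part of the cells, so the genotype labels were not tested by it. The acinar marker list, 10 genes of the main exocrine cell, was abundant in all libraries, with a summed scaled RPKM of 215400 to 288900 with saline, 62690 and 65010 for WT FAEE-SAP, and 164700 and 180900 for cKO FAEE-SAP.

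*C3* was the highest of the 8 genes in every library, and the C1q genes lie side by side in 1 cluster, so the sequence before the start of *C3* and of *C1qb* is shown for orientation. RefSeq (GRCm38.p6) gave a promoter for 5 of the 8 members. *C4b*, *Cfb*, and *C1qa* had no entry. Each sequence is the 250 bases before the RefSeq start on the minus strand, chr17:57228137-57228386 for *C3* and chr4:136886201-136886450 for *C1qb*. Capitals mark the only match in each window to 6 motifs searched on both strands, which were TATAAA (core promoter element), TTGCGNAA (C/EBP), GGNNNTTCC (NF-kB), TTCNNNGAA (STAT), GAGGAA (PU.1), and GAAANNGAA (IRF). The motifs were chosen with the sequences in view.
C3: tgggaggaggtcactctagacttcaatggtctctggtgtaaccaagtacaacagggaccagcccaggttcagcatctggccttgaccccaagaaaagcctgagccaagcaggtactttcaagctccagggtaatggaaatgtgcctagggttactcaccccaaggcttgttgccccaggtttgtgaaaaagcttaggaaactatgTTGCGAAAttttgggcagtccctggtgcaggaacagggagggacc
C1qb: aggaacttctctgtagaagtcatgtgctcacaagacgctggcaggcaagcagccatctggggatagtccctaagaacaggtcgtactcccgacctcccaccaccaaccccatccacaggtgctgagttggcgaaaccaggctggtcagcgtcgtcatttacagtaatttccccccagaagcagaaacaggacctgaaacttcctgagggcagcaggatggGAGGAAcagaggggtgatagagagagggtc
In *C3* the match was to the C/EBP letters, at -45 to -38 from the start, which 0.67% of 32851 mouse promoters of the same length hold. In *C1qb* it was to the PU.1 letters, at -30 to -25, which 23.3% of those promoters hold. The other motifs were held by 12.4% (core promoter element), 15.7% (NF-kB), 7.02% (STAT), and 7.13% (IRF) of promoters. Letters that match are a description, and no factor binding was measured in these mice.

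Among the 8 members, *C5ar1* rose in WT mice with FAEE-SAP and was the only one that passed the test in any comparison, but it passed the filter on low values only through the group where it was high, and its call was lost without that filter (adjusted p = 0.0603). The call required a limma adjusted p under 0.05 over all genes tested and a change of at least 2-fold. In WT mice with FAEE-SAP, 1 of 8 members was called, beside 6.93% of all genes tested (755 of 10894). In cKO mice with FAEE-SAP, 0 of 8 were called, beside 0.0531% (5 of 9423). Between cKO and WT mice with FAEE-SAP, 0 of 8 were called, beside 1.27% (140 of 11008). Between genotypes with saline, 6 members passed the filter on low values and 0 were called, beside 0% (0 of 8715, with 187 genes at an unadjusted p under 0.05, and 0 called by voom). *C3ar1* and *C5ar1* were under the filter there, and the log2 fold changes of the other 6 members were -0.30 to 0.02 (limma adjusted p = 0.999 for each), the widest 95% interval being that of *Cfb*, 0.403- to 1.92-fold. For the interaction, the difference between the FAEE-SAP effects of the 2 genotypes, 0 of 8 were called, beside 0.0719% (8 of 11133). At an unadjusted p under 0.05, 3 members were counted in WT beside 27.7% of all genes tested, 4 in cKO beside 9.42%, 4 between genotypes with FAEE-SAP beside 19.5%, 0 with saline beside 2.15%, and 3 in the interaction beside 12.6%. *C3ar1*, which like *C5ar1* passed the filter only through FAEE-SAP, was among the 3 in WT and the 4 in cKO. Without these receptors the counts were 1 of 6 in WT (*Cfb*) and 3 of 6 in cKO (the C1q chains). No source states that the 2 libraries of a group came from separate mice, so p-values measure the spread between these samples.

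**Figure D1:**
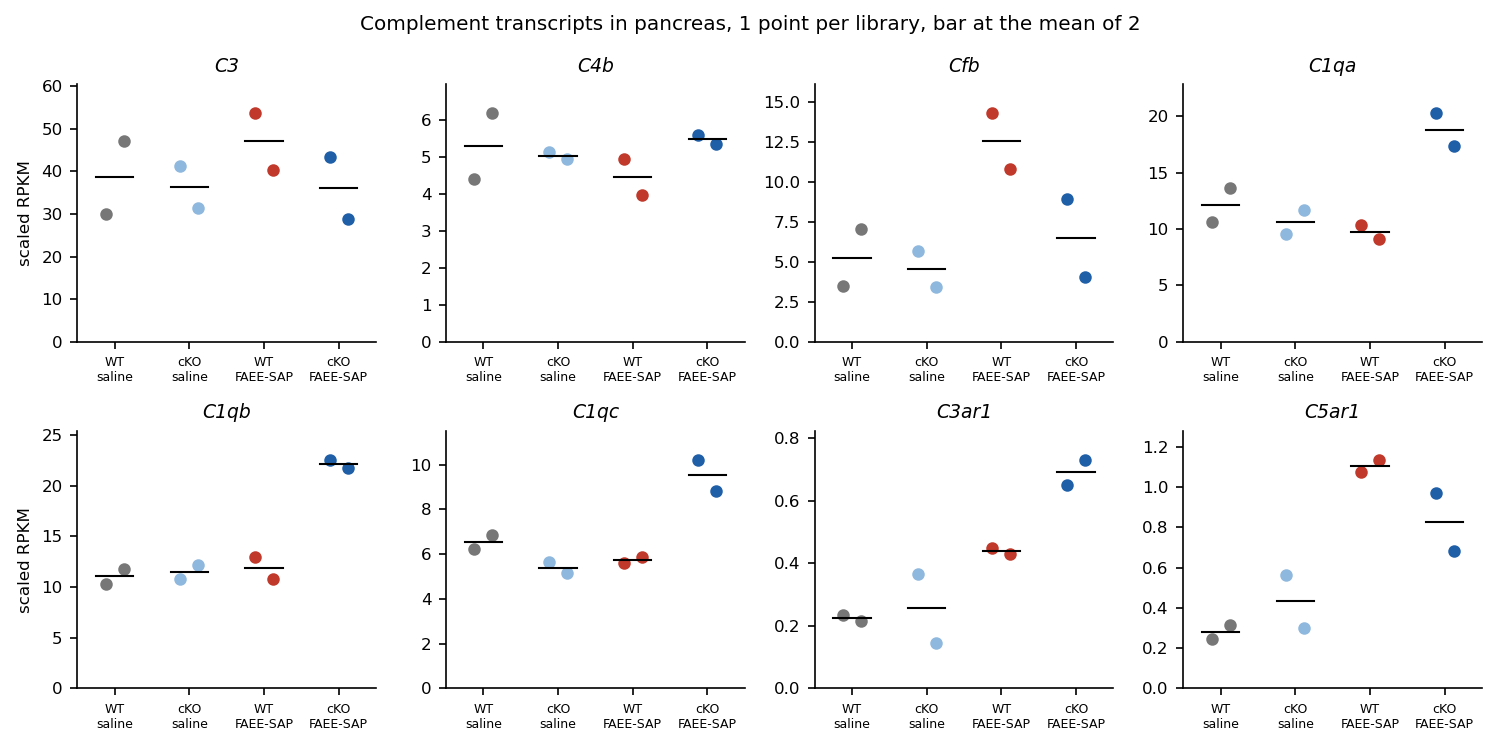
Scaled RPKM (vertical axes, linear from 0) of the 8 complement genes in the 4 groups, with 1 point per library and a bar at the mean of 2. *C5ar1* is at 1.07 and 1.14 in WT FAEE-SAP against 0.245 and 0.312 in WT saline, and the 3 C1q panels have their highest points in cKO FAEE-SAP.

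*C3* encodes the protein on which all activation pathways meet. It lies on chr17:57203970-57228136 (GRCm38, minus strand). Its scaled RPKM was 30.1 and 47.2 for the WT saline libraries, 41.1 and 31.3 for cKO saline, 53.7 and 40.3 for WT FAEE-SAP, and 43.5 and 28.9 for cKO FAEE-SAP. No pair of groups was apart, but WT FAEE-SAP (from 40.3) overlapped cKO saline (up to 41.1) and cKO FAEE-SAP (up to 43.5) by a small margin only. Between 3196 and 13149 reads per library stood behind these values, so counting error was small beside the spread between libraries. The log2 fold change of *C3* with FAEE-SAP was 0.30 in WT (SE 0.27, adjusted p = 0.525) and 0.01 in cKO (SE 0.29, adjusted p = 0.993). The 95% interval in WT ran from a 0.779- to a 1.94-fold change.

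*C4b* encodes C4, which is split by the C1 complex and forms part of the classical C3 convertase. It lies on chr17:34728380-34743882. Its scaled RPKM was 4.40 and 6.18 for the WT saline libraries, 5.12 and 4.93 for cKO saline, 4.93 and 3.97 for WT FAEE-SAP, and 5.60 and 5.35 for cKO FAEE-SAP. The 2 cKO FAEE-SAP libraries were above both WT FAEE-SAP libraries and, by a small margin, above both cKO saline libraries. The log2 fold change was -0.24 with FAEE-SAP in WT (adjusted p = 0.580), 0.15 in cKO (adjusted p = 0.779), and 0.29 in cKO against WT with FAEE-SAP (adjusted p = 0.501). *C4b* has a near-identical copy in *C4a*, and reads that fit both could be placed with either. The values of *C4a* came to 0 to 12 reads per library, against 518 to 1433 for *C4b*.

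*Cfb* encodes factor B, the protease precursor of the alternative pathway. It lies on chr17:34856374-34862518. Its scaled RPKM was 3.46 and 7.07 for the WT saline libraries, 5.68 and 3.44 for cKO saline, 14.3 and 10.8 for WT FAEE-SAP, and 8.96 and 4.05 for cKO FAEE-SAP. Both WT FAEE-SAP libraries were above the other 6. The log2 fold change with FAEE-SAP in WT was 1.31 (SE 0.36, 95% interval 1.34- to 4.58-fold), with an unadjusted limma p of 0.0116 and an adjusted p of 0.0842, and it was not called. With each library left out, the log2 fold change ran from 0.81 to 1.80. It was highest without the second WT saline library, whose value was the higher of that pair. In cKO mice the log2 fold change was 0.47 (SE 0.47, adjusted p = 0.756), and in cKO against WT with FAEE-SAP it was -1.05 (SE 0.39, adjusted p = 0.227). The cKO and WT libraries with FAEE-SAP did not overlap, but the difference in FAEE-SAP effect between genotypes, -0.87 on the log2 scale (95% interval -2.44 to 0.70), was not past the threshold. *Cfb* overlaps *Gm20547* on the same strand, a locus that overlaps *Cfb* and part of *C2*, to which 0 to 9 reads per library were assigned.

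The C1q chains form the recognition molecule of the classical pathway, in which each subunit is built of 1 A, 1 B, and 1 C chain. The genes lie together on the minus strand of chromosome 4, *C1qb* at chr4:136880129-136886187, *C1qc* at chr4:136889804-136893065, and *C1qa* at chr4:136895917-136898803. The scaled RPKM of *C1qa* was 10.6 and 13.6 for the WT saline libraries, 9.60 and 11.7 for cKO saline, 10.3 and 9.13 for WT FAEE-SAP, and 20.3 and 17.3 for cKO FAEE-SAP. The scaled RPKM of *C1qb* was 10.3 and 11.8 for the WT saline libraries, 10.7 and 12.1 for cKO saline, 13.0 and 10.8 for WT FAEE-SAP, and 22.6 and 21.7 for cKO FAEE-SAP. That of *C1qc* was 6.22 and 6.87 for the WT saline libraries, 5.63 and 5.13 for cKO saline, 5.61 and 5.87 for WT FAEE-SAP, and 10.2 and 8.82 for cKO FAEE-SAP. For each chain both cKO FAEE-SAP libraries were above the other 6, which lay close together.

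Fitted over all genes, the C1q values in cKO mice with FAEE-SAP were 1.80-fold (*C1qa*, 95% interval 1.24 to 2.61), 1.97-fold (*C1qb*, 1.44 to 2.69), and 1.79-fold (*C1qc*, 1.27 to 2.51) those of cKO mice with saline. None passed the test, with adjusted p of 0.420, 0.269, and 0.383. Against WT mice with FAEE-SAP, cKO mice had 1.91-fold (*C1qa*), 1.85-fold (*C1qb*), and 1.64-fold (*C1qc*) the level, with adjusted p of 0.0955, 0.103, and 0.150. Over 15 alternatives the adjusted p ranged from 0.0475 to 0.929 for *C1qa*, from 0.0420 to 0.778 for *C1qb*, and from 0.0647 to 0.519 for *C1qc*, and none was called. In WT mice the 3 log2 fold changes with FAEE-SAP were -0.31, 0.09, and -0.19, with adjusted p from 0.371 to 0.794. The direct test of the difference in effect, the interaction, gave a log2 difference of 1.12 for *C1qa* (SE 0.28, unadjusted p 0.00469, adjusted p = 0.228), 0.85 for *C1qb* (SE 0.24, adjusted p = 0.267), and 0.99 for *C1qc* (SE 0.23, adjusted p = 0.202). As deposited, without scaling, *C1qa* was at 20.9 and 17.7 RPKM in WT FAEE-SAP and at 21.2 and 16.9 in cKO FAEE-SAP, so the difference between genotypes with FAEE-SAP depends on the scaling, and its log2 value turned to between -0.24 and -0.02 for the 3 chains.

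The receptor transcripts were the rarest members. *C3ar1* encodes the receptor for C3a and lies on chr6:122847138-122856161. Its scaled RPKM was 0.236 and 0.216 for the WT saline libraries, 0.367 and 0.145 for cKO saline, 0.450 and 0.429 for WT FAEE-SAP, and 0.651 and 0.732 for cKO FAEE-SAP. These values rested on 21 and 22 reads, 37 and 13 reads, 90 and 117 reads, and 81 and 95 reads. Both groups with FAEE-SAP were above their saline groups in every library. The log2 fold change of *C3ar1* was 0.76 in WT (SE 0.27, adjusted p = 0.136) and 1.19 in cKO (SE 0.37, adjusted p = 0.455), on log2(scaled RPKM + 0.1), a scale that understates changes at such low values. Like *C5ar1*, it passed the filter in both genotypes only through the FAEE-SAP libraries (deposited RPKM 0.0962 to 0.228 with saline and 0.682 to 0.911 with FAEE-SAP). In cKO against WT with FAEE-SAP it was 0.57 (SE 0.26, adjusted p = 0.301).

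*C5ar1* encodes the main signaling receptor for C5a, carried by neutrophils and macrophages. It lies on chr7:16246743-16259540. Its scaled RPKM was 0.245 and 0.312 for the WT saline libraries, 0.564 and 0.298 for cKO saline, 1.07 and 1.14 for WT FAEE-SAP, and 0.970 and 0.684 for cKO FAEE-SAP. All 4 libraries with FAEE-SAP were above all 4 with saline. The reads worked out for them were 13 and 19, 34 and 16, 128 and 185, and 72 and 53. *C5ar1* rose 3.30-fold in WT mice with FAEE-SAP (95% interval 2.15 to 5.09, log2 fold change 1.72, SE 0.25, adjusted p = 0.0198). This fold and its interval are for values with 0.1 added, which understates the change at such low values (group means 0.279 and 1.10 scaled RPKM). Its deposited RPKM was 0.178 and 0.271 in WT saline, under the minimum of 0.5, and 2.17 and 2.20 in WT FAEE-SAP. The call was lost without the filter, as given above, with a pseudocount of 1 (log2 fold change 0.82), and without the first WT saline library (log2 fold change 1.63), and the gene was under the filter without either WT FAEE-SAP library. Over the 14 alternatives in which it was tested, the adjusted p ranged from 0.00134 to 0.0757. In cKO mice the log2 fold change was 0.83 (SE 0.35, adjusted p = 0.551), and in cKO against WT with FAEE-SAP it was -0.42 (SE 0.27, adjusted p = 0.448). The difference in FAEE-SAP effect between genotypes was -0.84 (95% interval -1.85 to 0.17, adjusted p = 0.473), so a larger rise in WT than in cKO mice was not shown.

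**Figure D2:**
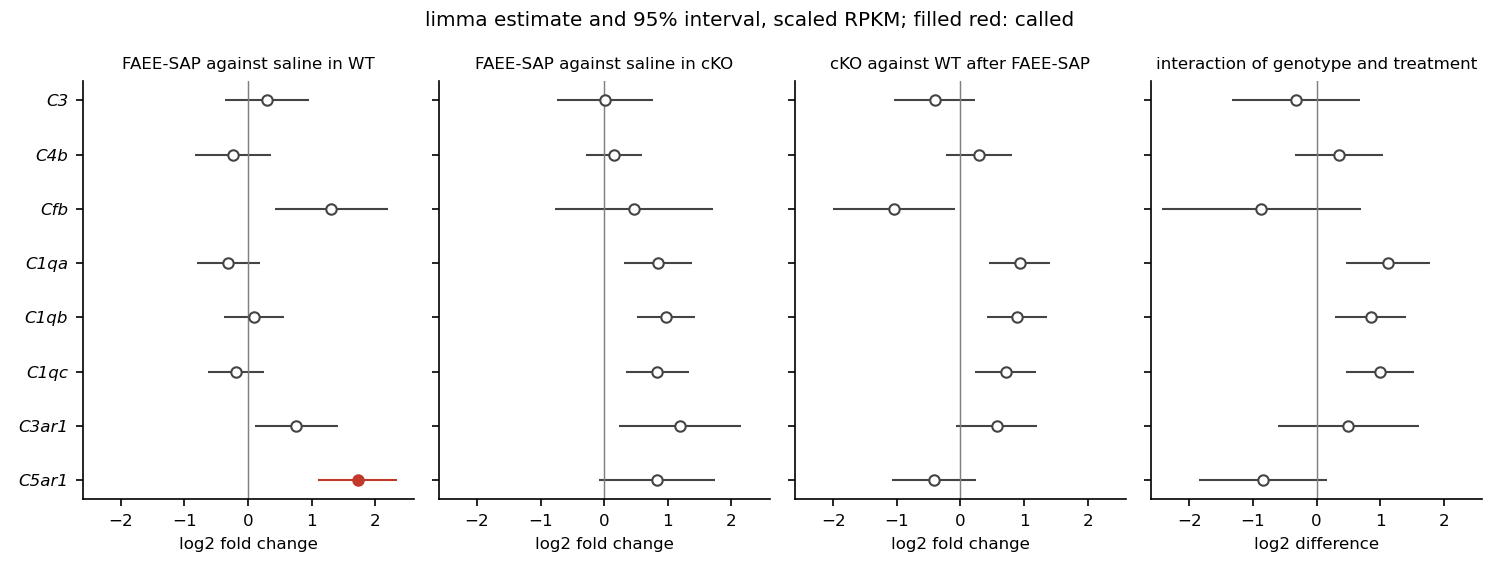
limma estimates for the 8 members on the log2 scale (horizontal axes), with 95% intervals, for the FAEE-SAP effect by genotype, the genotype effect after FAEE-SAP, and the interaction. The only filled point is *C5ar1* in WT at 1.72, and the C1q chains lie between -0.31 and 0.09 in WT and between 0.84 and 0.98 in cKO.

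Groups that do not overlap were common at 2 libraries each. In WT, 3 members were higher without overlap with FAEE-SAP (*Cfb*, *C3ar1*, and *C5ar1*) and 2 were lower (*C1qa* and *C1qc*), beside 58.8% of all genes tested without overlap in either direction. In cKO, 6 of 8 were higher (all but *C3* and *Cfb*) and 0 lower, beside 43.2%. In both genotypes *C3ar1* and *C5ar1* passed the filter only through FAEE-SAP, so nothing is read from their part in these counts. In cKO against WT with FAEE-SAP, 5 were higher (*C4b*, the C1q chains, and *C3ar1*) and 2 lower (*Cfb* and *C5ar1*), beside 51.8%. The median log2 fold change of the 8 members was 0.20 in WT, 0.83 in cKO, and 0.43 in cKO against WT with FAEE-SAP, beside 0.02, -0.01, and -0.01 over all genes tested. Without *C3ar1* and *C5ar1*, the median of the other 6 was -0.05 in WT, with the sign turned, 0.65 in cKO, and 0.50 in cKO against WT with FAEE-SAP. These comparisons share libraries and are not independent of each other.

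The scaling decides how the FAEE-SAP groups are set against the others. As deposited, the median of all genes differed by 1.24 on the log2 scale between WT FAEE-SAP and WT saline, by 0.57 between the cKO groups, by -0.91 between cKO and WT with FAEE-SAP, and by -0.25 between genotypes with saline. On that scale all 8 members were called higher in WT with FAEE-SAP (log2 fold change 1.001 to 2.83), together with 7270 genes in all. Relative to that median, *C5ar1* (2.83) and *Cfb* (2.61) lay farthest above it, and *C4b* (1.06), *C1qa* (1.001), and *C1qc* (1.11) lay below it. Also as deposited, *C3* (-1.36), *Cfb* (-1.99), and *C5ar1* (-1.30) were called lower in cKO than in WT mice with FAEE-SAP, together with 4427 genes called in all, and the other 5 members lay between -0.65 and -0.02. In bulk tissue, fewer cells of a type and less RNA per cell cannot be told apart. The acinar sums given above are scaled values, already divided by these factors. Their movement opposite to the factors is thus in part built in, and nothing is read from it. The part of acinar transcripts in these shifts was not tested.

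**Figure D3:**
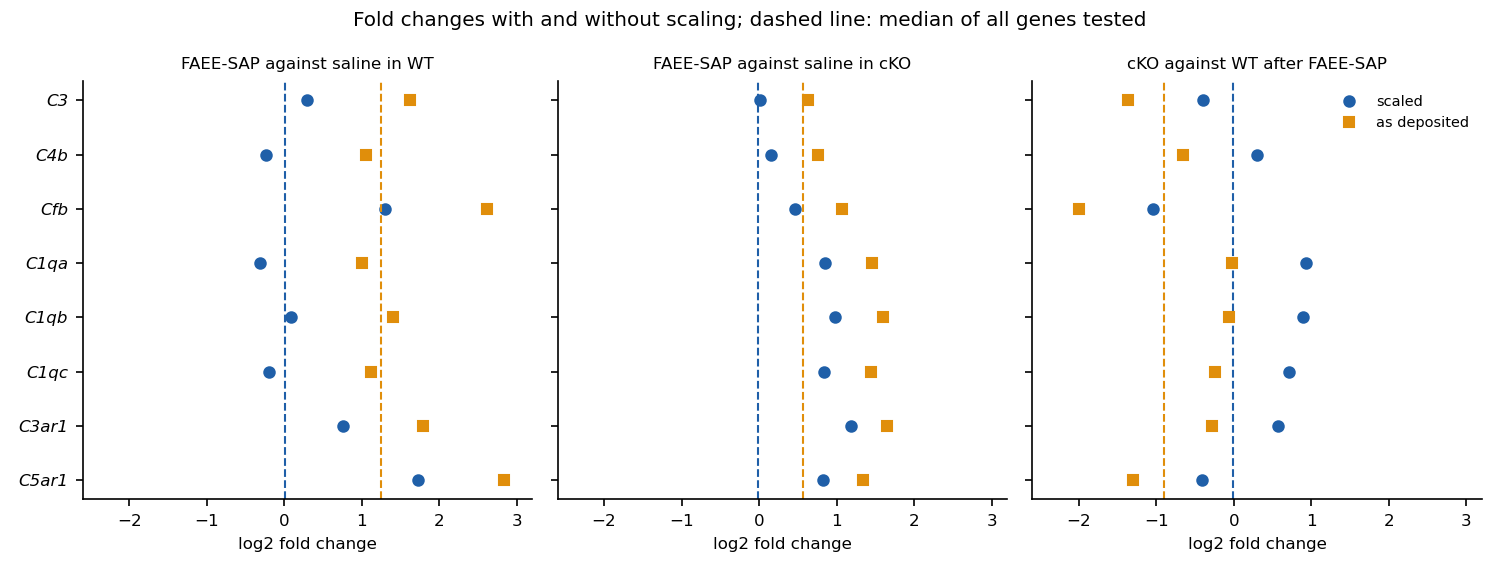
Log2 fold changes (horizontal axes) of the 8 members with scaling (circles) and as deposited (squares) in 3 comparisons, with dashed lines at the median of all genes tested for each scale. In WT the deposited values lie between 1.001 and 2.83 around a median of 1.24, and after FAEE-SAP the C1q chains in cKO against WT move from 0.71 to 0.93 with scaling to between -0.24 and -0.02 as deposited.

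Ratios between members within a library do not depend on any scaling factor. The ratio of *Cfb* to *C3* was 0.115 and 0.150 for the WT saline libraries, 0.138 and 0.110 for cKO saline, 0.267 and 0.267 for WT FAEE-SAP, and 0.206 and 0.140 for cKO FAEE-SAP. Factor B transcript thus made up more beside *C3* in both WT FAEE-SAP libraries than in any other library. The ratio of *C5ar1* to *C3ar1* was 1.04 to 1.45 in WT saline, 1.54 to 2.06 in cKO saline, 2.38 to 2.65 in WT FAEE-SAP, and 0.935 to 1.49 in cKO FAEE-SAP. The saline ratios rest on 13 to 37 reads per gene. The exact binomial 95% interval, which covers counting error only, was 0.9299 to 4.66 for the 2.06 of cKO saline and 1.805 to 3.155 for the 2.38 of WT FAEE-SAP, so these intervals overlap. It was 2.09 to 3.368 for the other WT FAEE-SAP library. In cKO FAEE-SAP it was 1.069 to 2.071 for the first library, which overlaps the 1.805 to 3.155, and 0.6548 to 1.321 for the second, below both of WT FAEE-SAP. The cKO FAEE-SAP libraries lay within or below the range of the saline libraries. The ratio of *C5ar1* to *C1qb* was 0.0826 to 0.105 in WT FAEE-SAP and 0.0237 to 0.0525 in the other 6 libraries. That of *C1qb* to *C3* was 0.519 to 0.751 in cKO FAEE-SAP and 0.242 to 0.388 in the other 6. With 2 libraries against 2, an exact two-sided permutation test of a ratio cannot give a p under 0.33, and the ratios were not tested in a model either.

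**Figure D4:**
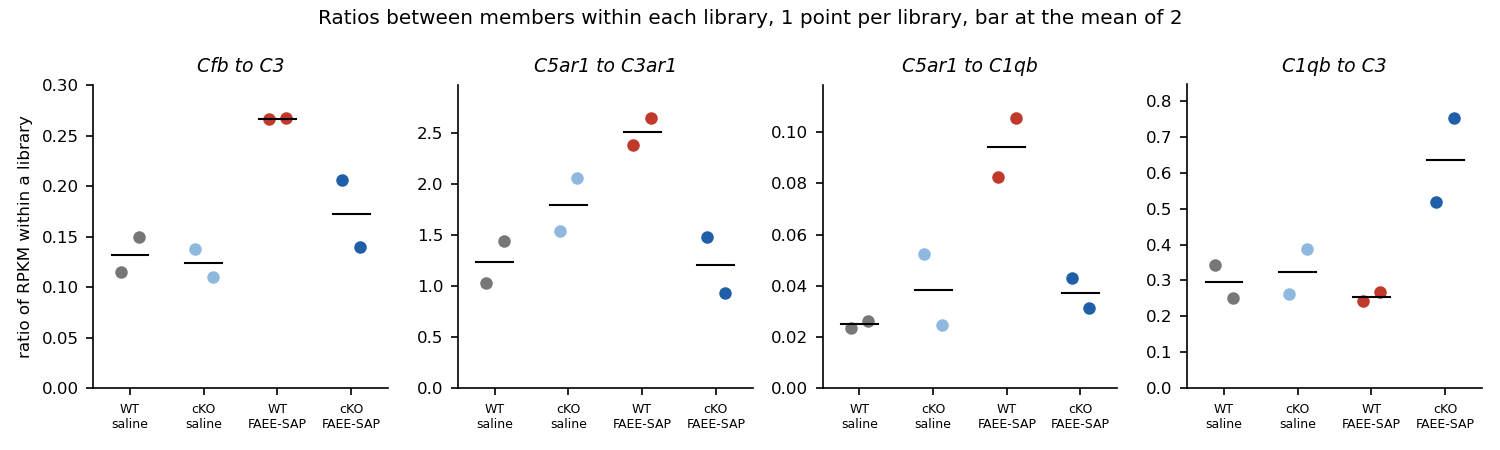
Ratios of RPKM (vertical axes, linear from 0) between pairs of members within each library, 1 point per library and a bar at the mean of 2. *Cfb* to *C3* is 0.267 in both WT FAEE-SAP libraries and at most 0.206 elsewhere, and *C1qb* to *C3* is 0.519 to 0.751 in cKO FAEE-SAP and at most 0.388 elsewhere.

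The C1q chains kept closer to each other than to the other members. The ratio of *C1qa* to *C1qb* was 0.796 to 1.16 over the 8 libraries, and that of *C1qc* to *C1qb* 0.407 to 0.602. Over the 8 libraries, Pearson's r of log2 values among the chains was 0.88 to 0.91, that of *Cfb* with *C3* was 0.89, and that of *C3ar1* with *C5ar1* was 0.79, whereas the closest other member of each chain gave 0.73 for *C1qb* with *C3ar1*, 0.69 for *C1qc* with *C3ar1*, and 0.67 for *C1qa* with *C4b*, and *C3* with the chains gave -0.13 to -0.07. The libraries share group, depth, and scaling, so these values describe the pattern and carry no test. *C2*, the classical relative of factor B and its neighbor in the genome, had a ratio to *Cfb* of 0.213 to 0.352 with saline, 0.0718 to 0.0801 for WT FAEE-SAP, and 0.127 to 0.201 in cKO FAEE-SAP. The scaled RPKM of *C2* itself was 0.774 to 1.51 in all libraries. *C2* was chosen after its values were seen.

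Markers of other cell types moved with several members. The summed scaled RPKM of 12 neutrophil markers stood at 1.74 to 4.37 with saline, at 62.1 and 58.8 for WT FAEE-SAP, and at 21.1 and 14.2 for cKO FAEE-SAP. *S100a8* (18.6 and 15.8) and *S100a9* (33.1 and 29.2) made up most of the sum in WT FAEE-SAP, so the sum mostly follows them. *Csf3r* overlapped between genotypes with FAEE-SAP, at 0.877 and 0.818 in WT and 1.06 and 0.560 in cKO. The other markers that passed the filter in WT were lower in both cKO FAEE-SAP libraries. The 8 markers that passed the filter in WT did so only through the FAEE-SAP libraries, so their calls (8 higher) were set in part by the filter and nothing is read from that count. In cKO against WT with FAEE-SAP, 2 of 8 tested were called lower (*S100a8* and *Retnlg*), beside the 1.27% of all genes. Of the defining neutrophil markers, *Mpo* and *Elane* were at 0 in both WT FAEE-SAP libraries, *Ly6g* and *Elane* in both WT saline libraries, and *Ly6g* in both cKO saline libraries. In cKO FAEE-SAP, *Mpo* was at 0.101 and 0.155 and *Elane* at 0 and 0.144, so *Mpo* went the other way from the sum. The neutrophil sum had an r of 0.97 with *C5ar1* and 0.83 with *Cfb* over the 8 libraries, which share group and scaling. *C5ar1* also had an r of 0.80 with the macrophage sum, 0.72 with the ductal sum, and -0.80 with the acinar sum, *Cfb* had -0.84 with the acinar sum, and the C1q chains had 0.54 to 0.74 with the macrophage sum. The summed scaled RPKM of 15 macrophage markers was 63.9 to 77.8 with saline, 81.7 and 97.7 for WT FAEE-SAP, and 89.8 and 104 for cKO FAEE-SAP, with 2 of 13 tested called higher in WT (*Cd14* and *Fcgr1*, of which *Fcgr1* passed the filter only through FAEE-SAP) beside 6.93% of all genes, 0 of 12 in cKO beside 0.0531%, and 1 of 13 called lower in cKO against WT with FAEE-SAP (*Cd14*). No macrophage marker was at 0 in both libraries of any group. The ratio of *C1qb* to the macrophage sum was 0.152 to 0.162 in WT saline, 0.138 to 0.158 in cKO saline, 0.132 to 0.133 in WT FAEE-SAP, and 0.217 to 0.242 in cKO FAEE-SAP, the highest of all. *Lyz2* alone, at 38.1 to 60.4, was the largest part of that sum in every library, so the ratio rests heavily on it. Taken beside each of the 15 markers in turn, *C1qb* was higher in cKO FAEE-SAP than in cKO saline without overlap for 6, lower for 3, and overlapping for 6, and against WT FAEE-SAP it was higher for 8, lower for 3, and overlapping for 4. In WT FAEE-SAP against WT saline it was higher for 4, lower for 4, and overlapping for 7. Between groups of 2 libraries 43.2% to 58.8% of all genes were without overlap, and nothing is read from these counts. The part of these cell types in the results was not tested.

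The libraries of 1 group also differed in other tissue markers. The sum of 5 adipocyte markers was 23.0 and 36.4 for the WT saline libraries, 45.1 and 23.8 for cKO saline, 53.2 and 70.4 for WT FAEE-SAP, and 58.9 and 18.1 for cKO FAEE-SAP. Within 3 of the 4 groups the library with the higher adipocyte sum had the higher *C3* and *Cfb*, and WT FAEE-SAP was the exception. Over all 8 libraries the adipocyte sum had an r of 0.80 with *C3* and 0.88 with *Cfb*. The sum of 8 fibroblast markers was 55.2 to 74.6 and had an r of 0.93 with *C4b*. The sum of 6 endothelial markers was 32.1 and 25.5 in cKO FAEE-SAP and 16.8 to 23.9 in all other libraries. It had an r of 0.93 with *C1qa*, 0.84 with *C1qb*, and 0.83 with *C1qc*. The sum of 10 lymphoid markers was 38.1 and 77.3 in WT saline and 109 and 36.8 in cKO FAEE-SAP. The 10 hepatocyte markers summed to 1.48 to 8.82 except in the first cKO saline library, at 22.9. Outside that library *Ttr* made up most of the sum, so the sum mostly follows this gene. *Ttr* was at 6.37 to 7.52 with saline, 0.848 and 1.26 for WT FAEE-SAP, and 4.32 and 4.03 for cKO FAEE-SAP. In the first cKO saline library *Apoa1* (10.5) was the largest part. *Alb* was at 2.22 there and at most 0.806 elsewhere. The mesothelial sum of 7 markers was 1.38 to 8.10, and the ductal sum of 7 was 33.3 to 54.5. Whether these tissue shares set the levels of the members was not tested.

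Of 50 other complement genes listed, 48 were in the files and 19 passed the filter in WT, of which 3 fell with FAEE-SAP and 0 rose, beside 6.93% of all genes called in either direction (420 lower and 335 higher). All 3 are secreted proteins. The acinar, hepatocyte, and mesothelial marker sums were also lower in both WT FAEE-SAP libraries than in WT saline, and higher in cKO FAEE-SAP than in WT FAEE-SAP. In these groups the hepatocyte sum mostly follows *Ttr*, as given above. The neutrophil, macrophage, ductal, and adipocyte sums were higher in WT FAEE-SAP than in WT saline, and the other sums overlapped. The part of these tissues in the levels of the 3 genes was not tested. *Fcna*, a ficolin that starts the lectin pathway, was at 2.57 and 2.80 scaled RPKM in WT saline and 1.32 and 1.21 in WT FAEE-SAP (log2 fold change -1.05, SE 0.21, adjusted p = 0.0411). *Vtn*, which encodes vitronectin, an inhibitor of the membrane attack complex, was at 14.2 and 13.3 in WT saline and 3.53 and 2.86 in WT FAEE-SAP (log2 fold change -2.09, adjusted p = 0.00576). *Cpn1*, a subunit of the carboxypeptidase that inactivates C3a and C5a, was at 3.36 and 4.11 in WT saline and 0.736 and 0.839 in WT FAEE-SAP (log2 fold change -2.14, adjusted p = 0.00828). As deposited, none of the 3 was called, with log2 fold changes of -0.78 for *Vtn* and -0.88 for *Cpn1*, and 0.22 for *Fcna*, whose direction turned. *Fcna* lost its call without any 1 of the 4 libraries, and *Vtn* and *Cpn1* lost theirs without the second WT FAEE-SAP library (adjusted p = 0.0508 and 0.0546). Over 16 alternatives, *Vtn* and *Cpn1* were each called in 14 and *Fcna* in 6.

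In cKO against WT mice with FAEE-SAP, 2 of 18 other complement genes tested were higher and 0 were lower, beside 1.27% of all genes called in either direction. *Fcna* was at 5.64 and 3.79 in cKO FAEE-SAP (log2 fold change 1.81, SE 0.26, adjusted p = 0.0450). With saline it was at 3.79 and 5.26 in cKO, also above both WT libraries (log2 fold change 0.68, unadjusted p 0.0265, limma adjusted p = 0.999). *Cpn1* was at 3.84 and 2.85 in cKO FAEE-SAP (log2 fold change 1.97, SE 0.25, adjusted p = 0.0336). With saline its 2 cKO libraries lay far apart, at 5.15 and 2.34, on either side of both WT libraries. *Cpn1* was called on deposited values too (1.06), whereas *Fcna* was not (0.88), and both calls were lost without any 1 of the 4 libraries (adjusted p = 0.0535 to 0.344 over the 2 genes). Over 15 alternatives, *Cpn1* was called in 9 and *Fcna* in 5. *Vtn* was at 8.10 and 7.06 in cKO FAEE-SAP (log2 fold change 1.22, adjusted p = 0.0761) and was not called, but it was called in 2 of 15 alternatives, with all 8 libraries in 1 model (adjusted p = 0.0197) and with the replicate block (0.0306). None of the 18 genes tested was called in cKO mice with FAEE-SAP or with saline, and none of 19 for the interaction. For *Cpn1* the log2 difference of the interaction was 2.04 (SE 0.50, adjusted p = 0.221), and for *Fcna* 1.08 (adjusted p = 0.301), so the calls in 1 comparison do not show a difference in effect. The median log2 fold change of the tested genes was -0.08 in WT, 0.06 in cKO, and 0.20 in cKO against WT with FAEE-SAP.

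**Figure D5:**
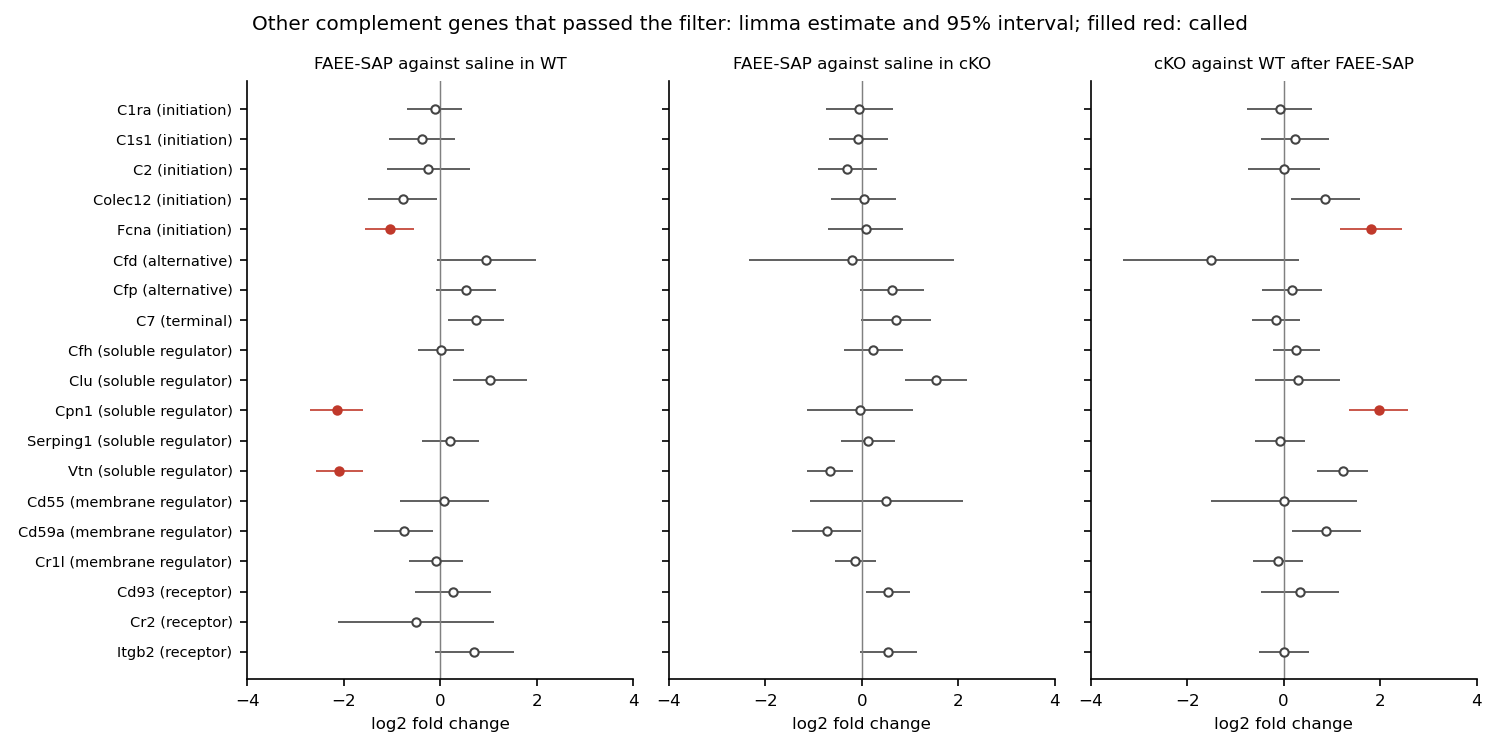
limma log2 fold changes (horizontal axes) with 95% intervals for the other complement genes that passed the filter, ordered by role, in 3 comparisons. Filled points are the called genes, *Fcna*, *Vtn*, and *Cpn1* below 0 in WT and *Fcna* and *Cpn1* above 0 in cKO against WT after FAEE-SAP.

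The gene of each role with the highest mean scaled RPKM over the 8 libraries gives the setting of the members. *C1s1*, a protease of the C1 complex, was at 3.42 to 6.31 scaled RPKM, with a log2 fold change of -0.37 in WT (adjusted p = 0.436). *Cfd*, the protease that cleaves factor B and is made in fat, was at 10.8 and 24.4 in WT saline, 25.8 and 39.2 for WT FAEE-SAP, and 25.9 and 4.85 for cKO FAEE-SAP, so its 2 cKO FAEE-SAP libraries lay far apart, as did their adipocyte sums. *C7*, a part of the membrane attack complex, was at 1.53 to 2.51 with saline and 3.08 to 3.75 with FAEE-SAP, without overlap, and was not called (log2 fold change 0.75 in WT, adjusted p = 0.109). *Clu*, which encodes clusterin, a soluble inhibitor of that complex, was the most abundant complement gene of all at 115 to 150 with saline, 391 and 207 for WT FAEE-SAP, and 280 and 438 for cKO FAEE-SAP. Its log2 fold change was 1.03 in WT (adjusted p = 0.0996) and 1.54 in cKO (adjusted p = 0.256), neither called. *Cr1l*, a membrane regulator that protects cells from C3 deposition, was at 1.77 to 2.36 in all libraries. It was not the highest of its role in every group. *Cd59a* had a higher mean in cKO saline (3.1 against 2.05). *Cd55* had a higher mean in WT FAEE-SAP (2.08 against 1.96) and in cKO FAEE-SAP (2.42 against 1.82). *Itgb2*, the beta chain of the integrin receptors for C3 fragments, was at 1.59 to 3.10 with saline and 3.52 to 3.99 with FAEE-SAP (log2 fold change 0.71 in WT, adjusted p = 0.236).

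Over the 8 libraries, each member's pattern was compared with those of 11133 genes by Pearson's r of log2 values. The patterns most like *C5ar1* were those of *Krt20*, *Prdx5*, and *Cxcr2* (r = 0.98), the last a neutrophil chemokine receptor. Those most like *Cfb* were *Oaz2*, *Ttpal*, and *Marco* (r = 0.98), and like *C3* were *Cxcl16*, *Cybb*, and *Bank1* (r = 0.97 to 0.99). For *C1qa* they were *Rnf130*, *Elmsan1*, and *Cd86* (r = 0.94 to 0.98), for *C1qb* *Zdhhc3*, *Fkbp15*, and *Myo5a* (r = 0.96 to 0.98), and for *C1qc* *Slc6a6*, *Palm*, and *Impact* (r = 0.95 to 0.97). For *C4b* they were *Arl10*, *Mpp1*, and *Ly6c2* (r = 0.93 to 0.96), and for *C3ar1* *Nhp2*, *Lgals3*, and *Pgk1* (r = 0.94 to 0.95). The libraries share group, depth, and scaling, and the lists are a description only.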

How the data were processed

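RNA-Seq libraries of mouse pancreas, 2 in each of 4 groups named by genotype and treatment labels, were analysed. The methods name a directional kit, fastp, and mapping to Ensembl GRCm38.p6 in CLC Genomics Workbench, and how the values were counted is not given in the sources used here. The authors deposited RPKM per gene and library. Reads were worked out from RPKM, exonic lengths of GENCODE vM21 (GRCm38, 95.1% of genes matched by symbol), and library totals recovered from the low values. Of values under 20 reads, 84.1% to 85.5% were whole within 0.1, and the reads of matched genes summed to 100.3% to 105.7% of the totals, so reads are approximate. Intervals cover these samples only.

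The libraries that entered a comparison were scaled to each other by their median ratio to the geometric mean. Genes with RPKM of at least 0.5 in at least 2 libraries were tested as log2(scaled RPKM + 0.1) with limma 3.58.1 (trend) in R 4.3.3, and called at a Benjamini-Hochberg adjusted p under 0.05 over all genes tested and at least a 2-fold change. A pseudocount understates the changes of low genes. Values by library are shown on a scale common to all 8. The procedure was tested on simulated data in which every gene had the same noise and all changes were well above the 2-fold threshold. That test does not cover changes near 2-fold or noise that differs by gene. The members and gene lists were chosen with earlier results of these data known. Named genes are the 8 members, other complement genes called in any comparison, the gene of each complement role with the highest mean over the 8 libraries, and the 3 genes most correlated with each member. Cell type markers, *Pfkfb3*, *C4a*, *Gm20547*, *C2*, *Cd55*, and *Cd59a* are named outside this rule, after their values were seen. *C1s2* and *Itgam* were not found by symbol. Marker lists were summed by library with no test of the sum, and macrophage and neutrophil markers were also counted by their calls in the same fits. Alternatives were values as deposited, other scalings, filters, and pseudocounts, no trend, 1 model, a replicate block, voom on the reads, an unadjusted threshold, and each library left out. A block with exchanged WT saline numbers was added after seeing the data.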

Additional observations from a re-analysis of the deposited data

Results flagged for a closer look

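For *C1qa* and *C1qc*, both WT libraries with FAEE-SAP were below both WT saline libraries, and both cKO libraries with FAEE-SAP were above both cKO saline libraries. Neither gene passed the test in either genotype, with log2 fold changes of -0.31 (adjusted p = 0.371) and -0.19 (0.545) in WT and 0.84 (0.420) and 0.84 (0.383) in cKO, and 58.8% and 43.2% of all genes tested had groups without overlap in WT and cKO. The difference in effect was tested as the interaction over all 8 libraries and did not pass the threshold in limma, at a log2 difference of 1.12 (adjusted p = 0.228, range over 18 alternatives 0.180 to 0.522) for *C1qa* and 0.99 (adjusted p = 0.202, range 0.145 to 0.481) for *C1qc*. As deposited, both genes were higher with FAEE-SAP in WT mice as well (log2 fold change 1.001 and 1.11), so the opposite signs depend on the scaling.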

How the results depend on the processing

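In WT with FAEE-SAP, 1 member was called. The count was 8 as deposited, 0 with no filter or with a pseudocount of 1, 0 to 2 with each library left out, 2 with the exchanged block, and 2 at an unadjusted p under 0.05 and at least 2-fold, which 1349 genes in all passed. *C5ar1* was under the filter without either WT FAEE-SAP library. At the unadjusted threshold the counts went from 0 to 1 in cKO with FAEE-SAP (*C3ar1*, which passed the filter only through FAEE-SAP, and 280 genes in all), in cKO against WT with FAEE-SAP (924), and for the interaction (782). As deposited, 3 members were called in cKO against WT with FAEE-SAP. The cause of these moves was not tested.

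Direction turned as deposited for *C4b* (1.06), *C1qa* (1.001), and *C1qc* (1.11) in WT, for *C4b* (-0.65), *C1qa* (-0.0227), *C1qb* (-0.0666), *C1qc* (-0.24), and *C3ar1* (-0.28) in cKO against WT with FAEE-SAP, for *C1qb* with saline (-0.25), and for *C4b* (-0.30) and *C3ar1* (-0.14) in the interaction. *C3* in cKO turned to -0.0190 with no filter and -0.0188 in 1 model. *C1qb* with saline turned to -0.0460 with quantile normalization and -0.0158 with an RPKM minimum of 2. With each library left out, log2 fold changes ran from -0.0209 to 0.60 for *C3* in WT, -0.28 to 0.38 for *C3* and -0.0899 to 1.10 for *Cfb* in cKO, and, with saline, -0.45 to 0.25 for *C3*, -0.35 to 0.18 for *C4b*, -0.72 to 0.33 for *Cfb*, and -0.11 to 0.14 for *C1qb*. None of these had been called.

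No source says what a replicate number marks. The correlation of deviations between same-numbered libraries was 0.399, 0.184, and 0.304 among cKO saline, cKO FAEE-SAP, and WT FAEE-SAP, and -0.319, -0.522, and -0.175 for their pairs with WT saline, so the numbers as given were not taken as pairs. With a replicate block, 1 member was called in WT (*C5ar1*, adjusted p = 0.0486) and 0 elsewhere, *Vtn* gained a call in cKO against WT with FAEE-SAP, *Fcna* lost its call in WT, and calls over all genes went from 755 to 442 in WT, from 5 to 52 in cKO, from 140 to 568 in cKO against WT with FAEE-SAP, and from 8 to 0 for the interaction. With the WT saline numbers exchanged, 822 genes were called in WT and 0 with saline. Without 1 library, calls over all genes were 97 to 491 in WT, 0 to 6 in cKO, 0 to 139 in cKO against WT with FAEE-SAP, and 0 to 4 for the interaction. Fewer genes were called with no filter (259 in WT, 0 in cKO, 0 in cKO against WT with FAEE-SAP). With all libraries in 1 model, 295 genes were called in cKO against WT with FAEE-SAP, against 140. The receptor values rest on 13 to 185 reads.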
